A study of Trichoderma reesei with 6 samples.

Results

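The genes described here encode the xylanases and xylan side-chain enzymes of the filamentous fungus Trichoderma reesei. They were taken by protein identifier, as a fixed list of 10 genes among the 9129 genes of the deposited table, and the rule uses no measured value. They are xyn1 (74223), xyn2 (123818), xyn3 (120229) and xyn4 (111849), which encode endo-xylanases, bxl1 (121127), which encodes a β-xylosidase, axe1 (73632), for an acetyl xylan esterase, glr1 (72526), for an α-glucuronidase, and abf1 (123283), abf2 (76210) and abf3 (55319), for α-L-arabinofuranosidases. The names came with the list of identifiers, and the reference annotation of strain QM6a gives a symbol to axe1 alone. RNA was sequenced from mycelium of a Δcre1 strain, made in the background of QM9414, after growth at 28 °C and 200 rpm in Mandels-Andreotti medium. There were 3 libraries with 1% cellulose and 3 with 2% glucose as the carbon source, which the series calls biological replicates. All 6 carry the cre1 deletion, and the sources used here do not say whether the strain is a single clone. Cellulose cultures of the study ran for 24, 48 or 72 h and glucose cultures for 24 or 48 h, but the labels do not tell the time of any library, so carbon source, its concentration and culture time cannot be told apart. The parental strain QM9414 enters only through the authors' own fold changes.

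Xylan is the main hemicellulose of plant cell walls, a backbone of xylose units that carries acetyl, glucuronic acid and arabinose side groups. Endo-xylanases cut the backbone, β-xylosidase releases xylose from the short chains that result, and the esterase, glucuronidase and arabinofuranosidases remove the side groups that block the cuts. In Trichoderma reesei the activator Xyr1 is required for most of these genes as for the cellulase genes, and Cre1 is the zinc-finger repressor of carbon catabolite repression.

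Read totals recovered from the normalised values ranged from 9009170 in glucose library 1 to 24655534 in glucose library 3. The targeted gene cre1 had 1372 to 4428 reads in the cellulose libraries and 361 to 870 in the glucose libraries, and which part of it was deleted is not given. Cellulose library 3 was nearer to the glucose libraries, with an average correlation over genes of 0.850 to them, than cellulose libraries 1 and 2 at 0.788 and 0.797. The most abundant gene of a library, in each case outside the list, took 33.3% of the reads of cellulose library 1. The most abundant gene took 35.1% of those of glucose library 1, and at most 18.2% in the others. Whether it was the same gene in these libraries was not recorded. Reads of the 10 genes together made up 0.271%, 0.189% and 0.111% of cellulose libraries 1, 2 and 3 (95% Wilson intervals 0.268% to 0.273%, 0.187% to 0.191% and 0.109% to 0.112%). In glucose libraries 1, 2 and 3 the share was 0.00380%, 0.00426% and 0.00468% (95% Wilson intervals 0.00341% to 0.00422%, 0.00400% to 0.00453% and 0.00442% to 0.00496%). These intervals cover counting error alone. The groups were far apart in this share, and the cellulose libraries differed among themselves by more than their counting error.

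The first comparison set cellulose against glucose within Δcre1. Most of the xylan enzyme genes were far higher on cellulose, by log2 differences of 3.03 for abf3 to 9.91 for axe1. The value of axe1 depends on the pseudocount, as its glucose libraries held few reads, and was 7.61 with a pseudocount of 10. The gene abf1 did not pass the test and xyn1 was close to the detection limit on both carbon sources. Of the 10 genes, 8 rose and 0 fell by limma with Benjamini-Hochberg adjustment over all 8176 genes tested, of which 18.2% rose. The count was 8 without cellulose library 3 or glucose library 1, and 7 without any one of the other 4 libraries and in DESeq2. For 8 of the 10, every cellulose library lay above every glucose library, which held for 25.9% of all genes tested. The median difference of the 10 genes, cellulose minus glucose on the log2(normalised count + 1) scale, was 5.66, and that of all genes of the table was 0. The filter, a mean of at least 10 over the 6 libraries, removed xyn1, and axe1 and abf2 passed it through their cellulose values alone.

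**Figure D1:**
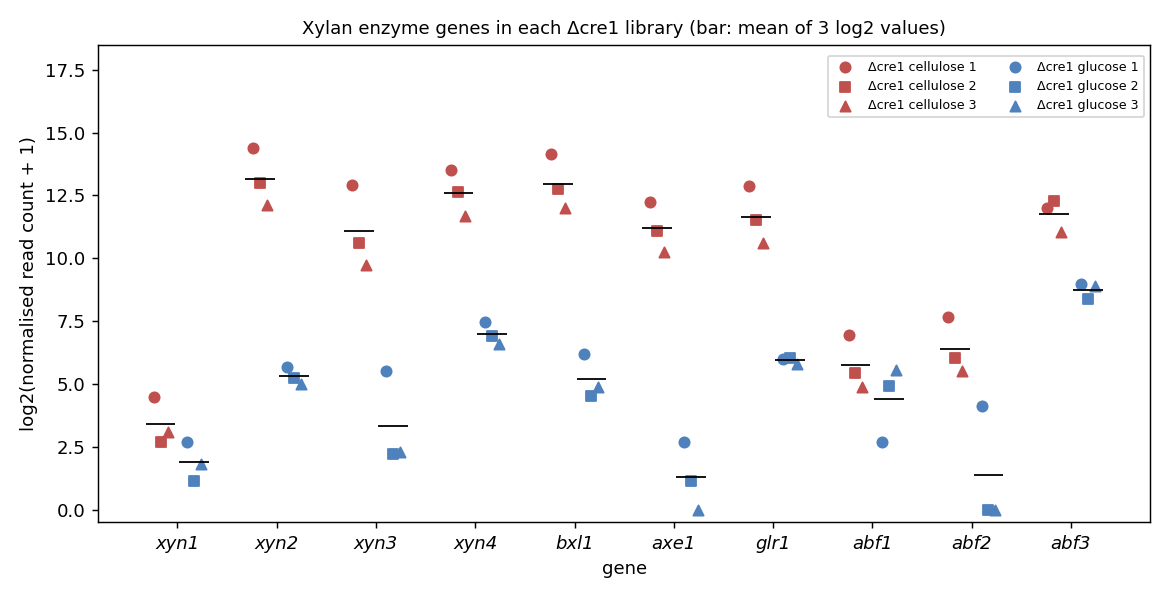
Level of each of the 10 genes in each library, as log2(normalised read count + 1), with Δcre1 cellulose libraries in red to the left of Δcre1 glucose libraries in blue; symbols mark the library number and the black bars the mean of the 3 log2 values. The groups overlap for xyn1 and abf1, and lie apart for the other 8 genes.

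Among the backbone-cutting enzymes, xyn2 reached the highest level per kb of gene length on cellulose. Its normalised read counts were 21260, 8155 and 4451 in cellulose libraries 1, 2 and 3, against 49.7, 36.3 and 31.4 in glucose libraries 1, 2 and 3. The lowest cellulose library was thus far above the highest glucose library. The difference was 7.86 on the log2 scale (SE 0.52, adjusted p = 0.000152 in limma), and 7.26 without cellulose library 1.

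The counts of xyn4 were 11660, 6419 and 3267 in cellulose libraries 1, 2 and 3, against 177, 119 and 96.7 in glucose libraries 1, 2 and 3. Both groups ran in the same order of libraries as for xyn2. The gene rose by 5.61 on the log2 scale (SE 0.45, adjusted p = 0.000293 in limma). Its 95% confidence interval, 4.56 to 6.66, ended near the lower bound of that of xyn2, 6.65 to 9.07, and the difference between the genes was not tested.

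The counts of xyn3 were 7816, 1566 and 848 in cellulose libraries 1, 2 and 3, against 44.2, 3.63 and 3.84 in glucose libraries 1, 2 and 3. Library 1 stood out in both groups. The 3 glucose values rest on 16, 6 and 6 reads. The difference was 7.76 on the log2 scale (SE 1.07, adjusted p = 0.00215 in limma), and 6.66 with a pseudocount of 10. It was 6.84 without cellulose library 1, 8.44 without cellulose library 3 and 8.85 without glucose library 1.

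The gene xyn1 was nearly silent. It had 14, 7 and 10 reads in cellulose libraries 1, 2 and 3, against 2, 2 and 4 in glucose libraries 1, 2 and 3. As normalised counts these were 21.2, 5.50 and 7.48 on cellulose and 5.52, 1.21 and 2.56 on glucose, so the groups overlapped. A level of 3 reads corresponds to normalised counts of 1.82 to 8.29 in the glucose libraries, so that a difference at these levels was hardly detectable at this depth. Without the filter its log2 difference was 1.53 and did not pass (adjusted p = 0.133 in limma).

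Within a library, the count of xyn1 stood at 0.000999, 0.000675 and 0.00168 of that of xyn2 in cellulose libraries 1, 2 and 3, against 0.111, 0.0333 and 0.0816 in glucose libraries 1, 2 and 3. These plain ratios do not depend on how the libraries were scaled, while the log2 values that follow also depend on the pseudocount, because xyn1 is so low. The log2 ratio of xyn1 to xyn2, with a pseudocount of 1, was -9.90, -10.29 and -9.04 in cellulose libraries 1, 2 and 3, against -2.96, -4.08 and -3.18 in glucose libraries 1, 2 and 3. The groups did not overlap, and averaged -9.74 ± 0.64 with cellulose and -3.41 ± 0.59 with glucose (SD of 3 libraries each). The difference of -6.34 had p = 0.1 in an exact permutation test (two-sided), which is the smallest value that 3 against 3 libraries can give. This test could therefore not pass the threshold of 0.05. The difference follows from the log2 differences of xyn1 and xyn2 given above and is not a separate result.

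The β-xylosidase gene bxl1 followed xyn2 closely on cellulose. On glucose its ratio to xyn2 was 1.44, 0.600 and 0.898 in libraries 1, 2 and 3. These ratios rest on 26, 36 and 44 reads of bxl1 and 18, 60 and 49 reads of xyn2. At so few reads they are uncertain, and whether the genes part on glucose was not tested. Its counts were 17992, 6880 and 4043 in cellulose libraries 1, 2 and 3, against 71.8, 21.8 and 28.2 in glucose libraries 1, 2 and 3. All cellulose values exceeded all glucose values. The difference was 7.77 on the log2 scale (SE 0.61, adjusted p = 0.000274 in limma), and 7.18 without cellulose library 1.

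**Figure D2:**
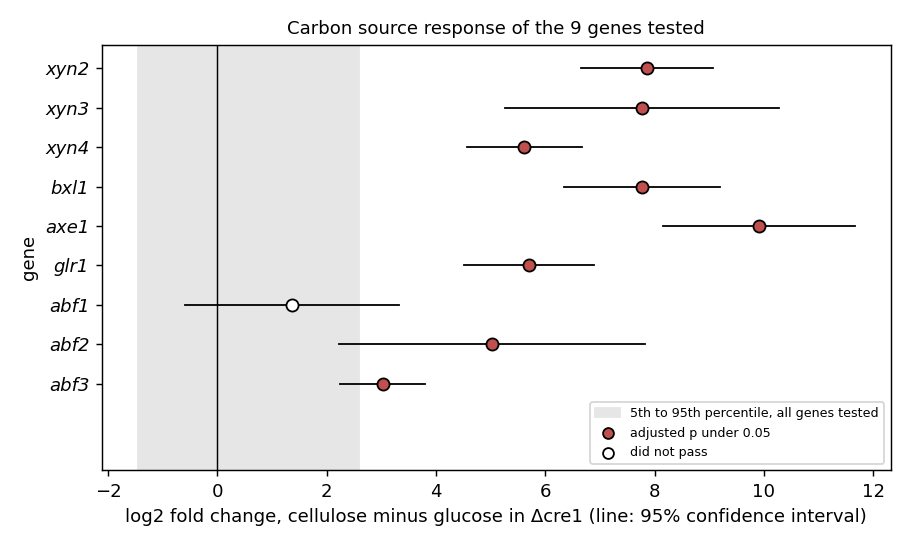
Log2 fold change of cellulose over glucose in Δcre1 for the 9 genes that passed the filter, with the 95% confidence interval of the limma fit as a line; the grey band spans the 5th to the 95th percentile of all genes tested, from -1.46 to 2.58. The values run from 1.36 for abf1, whose interval includes 0, to 9.91 for axe1, which depends on the pseudocount.

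Of the side-chain enzymes, axe1 had the lowest glucose level per kb of the list. Its counts were 4823, 2184 and 1218 in cellulose libraries 1, 2 and 3, against 5.52, 1.21 and 0 in glucose libraries 1, 2 and 3. The glucose libraries held 2, 2 and 0 reads of it, against 7586 reads in the 3 cellulose libraries together. The fitted log2 fold change of 9.91 (SE 0.75, adjusted p = 0.000236 in limma) therefore depends on the pseudocount, and was 7.61 with a pseudocount of 10. It was 10.62 without glucose library 1 and 9.27 without glucose library 3.

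The glucuronidase gene glr1 was low but steady on glucose. Its counts were 7513, 2909 and 1546 in cellulose libraries 1, 2 and 3, against 63.5, 65.4 and 54.4 in glucose libraries 1, 2 and 3. Its glucose libraries lay closer together than those of any other gene of the list relative to their mean. The difference was 5.71 on the log2 scale (SE 0.51, adjusted p = 0.000446 in limma), and 5.10 without cellulose library 1.

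Of the 3 arabinofuranosidase genes abf3 had the highest level in every library, and differences between their responses were not tested. The counts of abf3 were 4051, 5039 and 2123 in cellulose libraries 1, 2 and 3, against 505, 332 and 476 in glucose libraries 1, 2 and 3. It had the highest glucose level per kb of the list and was the only one of the 10 whose highest cellulose value was in library 2. It rose by 3.03 on the log2 scale (SE 0.33, adjusted p = 0.000916 in limma).

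The counts of abf2 were 200.2, 65.2 and 44.2 in cellulose libraries 1, 2 and 3, against 16.6, 0 and 0 in glucose libraries 1, 2 and 3. Its 6 glucose reads all came from library 1. It rose by 5.02 on the log2 scale (SE 1.20, adjusted p = 0.0184 in limma), and by 2.78 with a pseudocount of 10. It was 6.40 without glucose library 1, 4.39 without cellulose library 1 and 4.33 without glucose library 2 or 3. The call was lost in DESeq2 (adjusted p = 0.128), and in limma without cellulose library 1 or 2 (adjusted p = 0.0663 and 0.0543) or without glucose library 2 or 3 (adjusted p = 0.0649 and 0.0566).

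For abf1 the counts were 121, 42.4 and 28.4 in cellulose libraries 1, 2 and 3, against 5.52, 29.1 and 46.1 in glucose libraries 1, 2 and 3. The groups overlapped, and the log2 fold change of 1.36 (SE 0.84) did not pass (adjusted p = 0.251 in limma). It was 0.77 without cellulose library 1, 0.52 without glucose library 1 and 1.94 without glucose library 3. Its 95% confidence interval of -0.59 to 3.32 leaves room for both no change and a rise as large as that of abf3.

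Levels of different genes were compared as normalised counts per kb of gene length, using the lengths of the QM6a reference, which include introns. On cellulose xyn2 led with 11300 ± 8840 per kb, followed by xyn4 with 4256 ± 2536 and bxl1 with 3807 ± 2912 (SD of 3 libraries each). Then came axe1 with 2472 ± 1683, abf3 with 2438 ± 967, xyn3 with 2049 ± 2303 and glr1 with 1510 ± 1183 per kb (SD of 3 libraries each). Each of these 7 differed from its neighbour in the order by less than the spread between libraries, but xyn2 exceeded xyn4 per kb in 3 of 3 cellulose libraries, and bxl1 exceeded axe1 in 3 of 3. A wide step separated them from abf2 at 107 ± 87.4, abf1 at 35.1 ± 27.4 and xyn1 at 14.6 ± 11.0 per kb (SD of 3 libraries each).

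On glucose the order was another one. The level per kb was highest for abf3 with 286 ± 60.7, then xyn4 with 78.3 ± 24.7, xyn2 with 39.2 ± 9.50 and glr1 with 23.1 ± 2.22 (SD of 3 libraries each), and each of the first 3 exceeded the next in 3 of 3 glucose libraries and by more than the spread. The other 6 genes had between 2.02 per kb (axe1) and 16.0 per kb (bxl1), and neighbours among them differed by less than the spread.

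The make-up of the summed levels per kb changed accordingly. The share of xyn2 was 42.4%, 36.9% and 38.2% in cellulose libraries 1, 2 and 3, against 8.35%, 9.61% and 6.79% in glucose libraries 1, 2 and 3. The share of abf3 was 5.27%, 14.9% and 11.9% in cellulose libraries 1, 2 and 3, against 55.3%, 57.2% and 67.2% in glucose libraries 1, 2 and 3. Thus the xylanase gene xyn2 was the largest part on cellulose and the arabinofuranosidase gene abf3 the largest on glucose, in every library. The share of xyn4 overlapped between the groups, at 13.9% to 17.4% on cellulose and 12.5% to 18.9% on glucose.

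**Figure D3:**
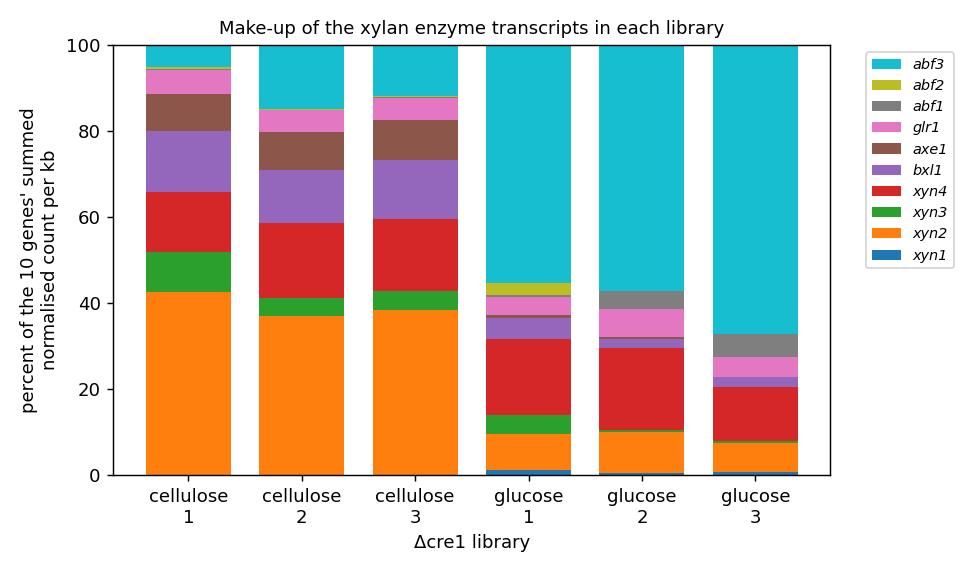
Share of each gene in the summed normalised count per kb of the 10 genes, in percent, for the 3 Δcre1 cellulose libraries on the left and the 3 Δcre1 glucose libraries on the right. The band of xyn2 fills 36.9% to 42.4% of the cellulose bars and that of abf3 55.3% to 67.2% of the glucose bars.

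The cellulose libraries varied together. For 9 of the 10 genes library 1 was the highest cellulose library, as it was for 36.8% of all genes tested, and for 9 of the 10 library 3 was the lowest, as for 41.7% of all genes tested. The ratio of cellulose library 1 to cellulose library 3 was 4.78 for xyn2, 4.45 for bxl1 and 4.86 for glr1, and it was 9.22 for xyn3 and 1.91 for abf3. Against xyn2 of the same library, the normalised count of glr1 stood at 0.353, 0.357 and 0.347 and that of bxl1 at 0.846, 0.844 and 0.908 in cellulose libraries 1, 2 and 3. These pairs kept nearly the same ratio while their levels moved several-fold. The ratio of xyn3 to xyn2 was 0.368, 0.192 and 0.191 and that of abf3 to xyn2 0.191, 0.618 and 0.477 in cellulose libraries 1, 2 and 3. On glucose 8 of the 10 genes were highest in library 1, which had the lowest read total, as were 37.7% of all genes tested. The part of depth, culture time and the most abundant gene of each library numbered 1 in these differences was not tested.

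Genes around xylan use were looked at through 3 lists, kept where the reference gives a symbol. Of the other hemicellulose enzymes 3 of 26 entries had one. For the mannanase gene man5a the counts were 9303, 2709 and 1558 in cellulose libraries 1, 2 and 3, against 27.6, 3.63 and 3.84 in glucose libraries 1, 2 and 3, and the gene rose by 8.62 on the log2 scale (adjusted p = 0.000635 in limma). The gene cip2, for a glucuronoyl esterase, rose by 7.64 (SE 0.94). The third, axe2, was at -0.76 and did not pass (adjusted p = 0.0502 in limma), so that 2 of 3 rose, against 18.2% of all genes tested. It passed as lower in 4 of 14 alternatives, with the smallest adjusted p in limma, 0.024, without cellulose library 2.

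Pentose catabolism takes up the xylose and arabinose that these enzymes release. Of the 4 genes with a symbol on the list for this pathway 2 rose, against 18.2% of all genes tested. The list was drawn up by gene symbol, and whether each gene acts in this pathway was not examined. For the xylose reductase gene xyl1 the counts were 2527, 1764 and 1088 in cellulose libraries 1, 2 and 3, against 1033, 729 and 647 in glucose libraries 1, 2 and 3, a log2 fold change of 1.10 (adjusted p = 0.0396 in limma). The arabinitol dehydrogenase gene lad1 rose by 1.76 (SE 0.26), while xdh1 at 0.36 and lxr1 at 0.95 did not pass (lxr1 passed with the replicate number as a block, adjusted p = 0.022 in limma). The call of xyl1 was kept in 6 of 14 alternatives and lost in the others with adjusted p-values from 0.0513 to 0.12, among them each setting that left out cellulose library 1 or 2 or 1 of the 3 glucose libraries, while that of lad1 was kept in all 14. The list's median was 1.03, and that of all genes tested -0.02.

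The list of regulators was described through single genes. For the activator gene xyr1 the counts were 20926, 9767 and 5293 in cellulose libraries 1, 2 and 3, against 5897, 5043 and 5067 in glucose libraries 1, 2 and 3. It ran in the same order over the cellulose libraries as xyn2, its groups overlapped, and its log2 fold change of 0.95 did not pass (adjusted p = 0.148 in limma). Without cellulose library 3 it was 1.43 and passed (adjusted p = 0.00964 in limma), as it did in DESeq2 at 1.17 (adjusted p = 0.0253). The remaining cre1 signal rose by 2.11. For ace1, hap2 and hap3 the values were 0.23, 0.28 and 0.17, without passing, and that of ace1 was -0.22 under quantile normalization.

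The second comparison set Δcre1 against the parental strain QM9414, using the fold changes and adjusted p-values of the authors' deposited table. On cellulose the genes split. In the authors' deposited table, xyn4 and abf3 (2 of the 10) were called higher in the mutant, against 6.68% of all genes, and abf1 and abf2 were called lower, against 2.48% of all genes. The xylanase gene xyn4 was higher in Δcre1 by a log2 fold change of 2.21 (deposited adjusted p = 0.00659), or 4.63-fold. The arabinofuranosidase gene abf3 was higher by 0.72 (deposited adjusted p = 0.00878), or 1.65-fold.

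The other arabinofuranosidase genes went the opposite way. In the authors' deposited table abf1 was at -2.58 (deposited adjusted p = 1.28e-15), so that the mutant had 0.167 of the parental level on cellulose. In the same table abf2 was at -2.05 (deposited adjusted p = 8.2e-12), or 0.242 of the parental level. Both are low in the mutant, with 38 to 80 reads of abf1 and 59 to 132 reads of abf2 per cellulose library.

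The other 6 genes were not called on cellulose. In the authors' deposited table xyn2 was at a log2 fold change of 1.61 (deposited adjusted p = 0.282), axe1 at 1.83 (deposited adjusted p = 0.114), glr1 at 1.32 (deposited adjusted p = 0.367) and bxl1 at 0.69 (deposited adjusted p = 0.711). The value of xyn3 in that table was -0.63 (deposited adjusted p = 0.318), and that of xyn1, with 31 reads in the mutant cellulose libraries, was 2.90 (deposited adjusted p = 1). The median of the 10 genes was 1.02 in the authors' deposited table on cellulose, and that of all genes was 0. A missing call does not show that these levels were alike, since the cellulose libraries of the mutant differed among themselves, in xyn3 by 4.99-fold between libraries 1 and 2.

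On glucose 9 of the 10 genes had a fold change in the authors' deposited table, and 0 of these were called. Of all genes with a fold change 7.81% were called in either direction. For 9 genes, 0 calls is near that share. Here too a missing call does not show that the levels of mutant and parent were alike. The table gives no unadjusted p-values. The largest values in the authors' deposited table on glucose were 3.98 for xyn4 and 3.82 for glr1 (deposited adjusted p = 1 for both), which had 412 and 216 reads in the 3 mutant glucose libraries together. In all, 3780 genes held this same deposited adjusted p on glucose, among them each of the 10 genes but abf3. In that table abf3 stood at 1.01 (deposited adjusted p = 0.706), xyn3 at 2.02, bxl1 at 1.62, xyn2 at 1.61 and abf2 at 1.44. The values of axe1 and abf1 in the authors' deposited table were -0.69 and -0.53, and xyn1 held the placeholder 100 in place of a fold change. The median of the 9 genes with a value was 1.61 in the authors' deposited table, and that of all genes was -0.03. Of the regulators described above, xyr1 was at 5.19 on glucose (deposited adjusted p = 4.57e-43) and 0.62 on cellulose (deposited adjusted p = 0.632). The remaining cre1 signal was at -3.11 on glucose (deposited adjusted p = 2.83e-17) and -1.96 on cellulose (deposited adjusted p = 9.74e-11). The genes ace1, hap2 and hap3 were not called on either carbon source. Whether the mutant's difference from the parent depends on the carbon source was not tested.

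**Figure D4:**
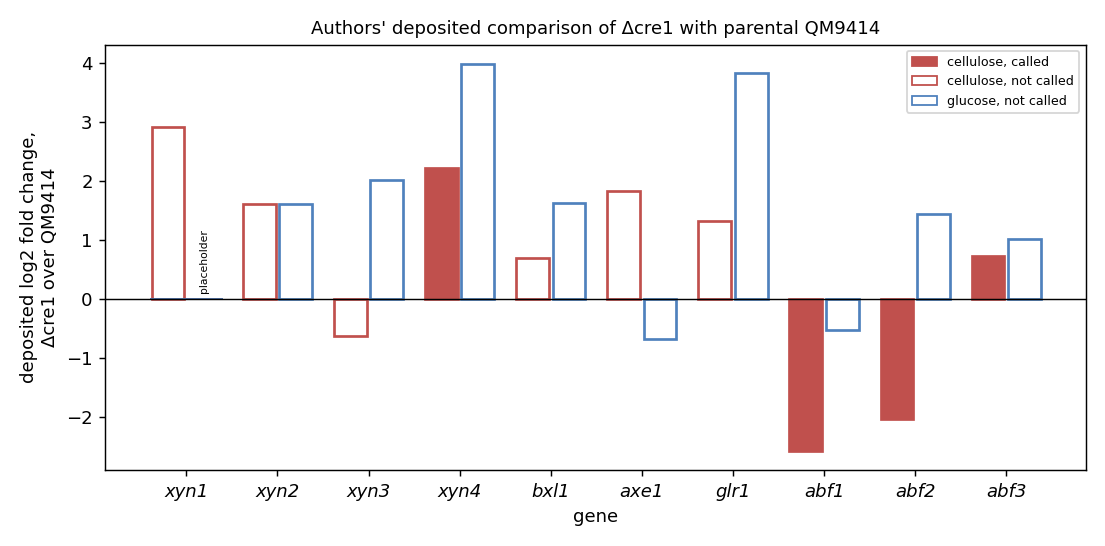
Log2 fold change of Δcre1 over QM9414 in the authors' deposited table for the 10 genes, on cellulose (red, left) and glucose (blue, right); filled bars were called at a deposited adjusted p under 0.05, open bars were not, and xyn1 has a placeholder on glucose. The filled bars are xyn4 and abf3 above 0 and abf1 and abf2 below 0, all on cellulose.

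The parental libraries were submitted with another series, so strain and batch cannot be told apart in this comparison. Of 206 genes that the authors' deposited table lists at the placeholder -100 on cellulose, 75 had reads in cellulose library 3 alone and 131 in no cellulose library. If that placeholder stands for no reads in the mutant, the 75 genes mean that the authors' cellulose comparison did not use library 3. The sources used here do not say which libraries it used.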

How the data were processed

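The labels' protocols name TRIzol extraction and the Illumina TruSeq RNA kit, and DESeq 1.10.1, Bowtie 0.12.8 and SAMtools 0.1.18 appear, without roles, in the submitters' processing notes. For the read counter, genome build and annotation, the sources used here give nothing. The deposited table of the mutant holds, for each gene in each library, a normalised signal that the authors made by dividing read counts by a factor per library, as found from the values. Dividing by the smallest value of each library turned 100% of the values into whole reads, to within 0.01 read. A second table holds the authors' log2 fold changes and adjusted p-values of the mutant over QM9414, per the file headers, with 100 and -100 as placeholders that were never called. Another 6 columns of per-library values belong to parental libraries without sample labels and were not used.

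Identifiers were matched to locus tags of the QM6a reference, assembly 2.0, which gave 9072 of 9129 genes an entry and 226 a symbol, and it served for names and gene lengths alone. Cellulose was set against glucose with limma 3.58.1 (R 4.3.3, intensity trend) on log2(normalised count + 1). Changes of low genes depend on this scale, in either direction. In limma and edgeR abf1 was at 1.36 and 1.09, and axe1 at 9.91 and 11.04. Genes with a mean under 10 were left out (953), and p-values were two-sided, Benjamini-Hochberg adjusted over 8176 genes, with a threshold of 0.05. Calls in the deposited table used the same threshold. Alternatives were a pseudocount of 10, no filter, TMM and quantile normalization, no trend, edgeR 4.0.16 and DESeq2 1.42.0 on the whole reads, a replicate block, each library left out, and a deposited threshold of 0.01. The scripts were also run on simulated data, with planted changes smaller than those of most of the 10 genes. The outcome is not given here, and that run is no test of the calls of these genes. The rule for names was the 10 genes, 3 lists of related genes and, for each gene tested, the 2 genes with a symbol whose profile was most like it. The genes, lists and tests were chosen with earlier results of these data known. A planned search for promoter motifs was not run, because it needs promoter sequence. One gene of the list of regulators is not reported here.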

Additional observations from a re-analysis of the deposited data

How the results depend on the processing

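The number of the 10 genes that rose on cellulose was 8 as reported, 7 in DESeq2, and between 7 and 8 when one library was left out, with abf2 as the only call lost. Of 127 values of the 10 genes under the alternatives 122 kept their side of the threshold, 5 were lost calls of abf2 and 0 changed direction. The calls of xyn2, xyn3, xyn4, bxl1, axe1, glr1 and abf3 held in all 14 alternatives, with limma, edgeR or DESeq2 adjusted p-values of at most 0.0144. For abf1, 0 of 14 alternatives gave a call (adjusted p 0.141 to 0.601). Over all genes, 2403 were called, 2325 in edgeR, 2784 in DESeq2, and 1357 to 3085 when one library was left out, the lowest without glucose library 2. Quantile normalization moved the median of all genes to -0.18 and the share of calls that were higher to 45.7%, against 62.0% as deposited, and without glucose library 2 that share was 73.4%. The difference of the log2 ratio of xyn1 to xyn2 ranged from -6.69 to -6.06 without one library and was -6.91 with a pseudocount of 10. Deposited calls on cellulose numbered 4 at both thresholds. Deviations from the group means of same-numbered libraries correlated across genes at 0.12, -0.14 and -0.03. For differently numbered libraries the values ran from -0.17 to 0.24. With 3 libraries per group these values cannot decide whether replicate numbers pair the libraries. With the replicate number as a block, 1911 genes were called, and 8 of the 10. Of the named genes of the 3 related lists, ace1 changed sign under quantile normalization (-0.22), without a call in any alternative, and the cause was not tested. Values resting on few reads (xyn1 on both carbon sources, axe1 and abf2 on glucose) are limited by depth.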

Other observations

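For each of the 9 genes tested, the genes with a symbol whose log2(normalised count + 1) profile was most like it over the 6 libraries were looked up among 218 candidates with a mean of at least 50. These correlations describe 6 libraries in 2 groups that lie far apart, and are given with no p. The profile of bxl1 was closest to that of cip1, a gene for a secreted protein with a cellulose-binding module (Pearson r = 0.9998, 6 libraries). The gene cip1 was also among the 2 nearest for xyn2, xyn4 and glr1, and cel61a, for a lytic polysaccharide monooxygenase, among those of xyn2, xyn4, axe1 and glr1. The nearest profiles to xyn3 were those of cel5a, an endoglucanase gene, and cip2, at r = 0.997 for both over 6 libraries. For abf2 the nearest were cel12a (r = 0.979, 6 libraries) and cel61b (r = 0.970, 6 libraries). The profile of abf3 was closest to those of phr1, for a photolyase (r = 0.995, 6 libraries), and rsr1 (r = 0.987, 6 libraries). For abf1 the highest value was 0.853, with the glycolysis gene pgk1 (6 libraries).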
